A study of Mus musculus with 30 samples.

Results

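MHC class I genes, the immunoproteasome genes and interferon-induced genes were followed in mouse muscle after spinal cord transection. The members were the rows of the deposited mRNA table that map to B2m, H2-K1, H2-D1, Tapbp, Psmb8, Psmb9, Psmb10, Gbp10 and Ifi205. All 9 were in the table, out of 11249 genes. The mice were male and were sampled 3 days after surgery. They had sham surgery, a transection of the spinal cord at thoracic level T3 (high) or a transection at T9 (low). The gastrocnemius, a calf muscle of the hind limb, gave 4 libraries per group, and the triceps brachii of the forelimb gave 6 libraries per group. The labels give neither strain nor age, and every group, sham included, had surgery. Replicates are separate libraries of a group, so p-values measure the spread between them. Values are log2 of CPM, where CPM is the reads of a gene scaled to the total reads of its library, and a log2 change of 1 is a doubling of CPM.

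MHC class I molecules carry short peptides from inside a cell to its surface, where CD8 T cells read them. The heavy chain (H2-K1 and H2-D1 in mice) pairs with the light chain B2m, and tapasin (Tapbp) holds the empty molecule at the peptide transporter Tap1/Tap2 until a peptide is bound. The peptides are cut by proteasomes, in which interferon gamma exchanges the catalytic subunits Psmb5, Psmb6 and Psmb7 for Psmb8, Psmb9 and Psmb10. Gbp10 belongs to the guanylate-binding proteins, GTPases that interferons induce and that act against pathogens inside cells. Ifi205 belongs to the Ifi200 (p200) family of interferon-inducible genes. Resting muscle fibres are known for low MHC class I, while endothelial cells and leukocytes of the tissue carry it.

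Of the members, 5 lie in the MHC region of chromosome 17 on the GRCm38 build: Tapbp at chr17:33915899-33929292, H2-K1 at chr17:33996017-34000347, Psmb9 at chr17:34181987-34187764, Psmb8 at chr17:34197721-34201454 and H2-D1 at chr17:35262730-35267499. B2m lies at chr2:122147686-122153083, Psmb10 at chr8:105935735-105938444, Gbp10 at chr5:105215699-105239533 and Ifi205 at chr1:174011998-174031810. Promoter windows from RefSeq (build GRCm38.p6, 250 bases before the start of a gene and 50 after) were found for 8 of the 9, Gbp10 not among them. Both strands were searched for the interferon-stimulated response element (GAAA, any 2 bases, GAAA) and for the gamma-activated site (TTCNNNGAA). No window held both. The first was present in B2m, with its first base 139 bases before the start, and in Ifi205, 134 bases before the start and again, on the opposite strand, at position 24 after it. The second was present in Psmb8, 97 bases before the start. Of all 32851 windows of that length, 3.44% held the first motif and 8.30% the second. Neither motif was found in the windows of H2-K1, H2-D1, Tapbp, Psmb9 and Psmb10, which says only that these letters are not there. The sequences are given for the 3 members with a match, for Psmb9, whose window overlaps that of Tap1 on the opposite strand, and for Tapbp and Psmb10, members called changed in the gastrocnemius after both lesions. Capitals mark the motif matches.
B2m, chr2:122147437-122147736, strand plus: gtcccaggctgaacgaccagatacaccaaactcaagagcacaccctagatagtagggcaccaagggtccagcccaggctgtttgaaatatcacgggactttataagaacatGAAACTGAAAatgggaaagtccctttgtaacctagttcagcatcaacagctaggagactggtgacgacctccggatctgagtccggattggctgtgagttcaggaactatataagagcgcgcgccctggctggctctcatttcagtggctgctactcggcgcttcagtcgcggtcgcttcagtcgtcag
Psmb8, chr17:34197945-34198244, strand plus: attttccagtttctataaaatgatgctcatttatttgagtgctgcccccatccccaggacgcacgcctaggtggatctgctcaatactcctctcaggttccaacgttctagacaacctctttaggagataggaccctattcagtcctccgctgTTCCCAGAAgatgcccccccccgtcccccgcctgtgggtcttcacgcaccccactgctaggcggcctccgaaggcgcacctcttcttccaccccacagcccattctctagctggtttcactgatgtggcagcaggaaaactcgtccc
Ifi205, chr1:174031706-174032005, strand minus: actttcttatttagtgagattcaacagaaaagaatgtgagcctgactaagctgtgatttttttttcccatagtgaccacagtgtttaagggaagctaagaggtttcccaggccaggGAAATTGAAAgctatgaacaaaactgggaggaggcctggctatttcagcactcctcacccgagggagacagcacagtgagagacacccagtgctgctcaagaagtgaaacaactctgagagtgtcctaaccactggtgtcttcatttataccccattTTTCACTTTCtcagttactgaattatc
Psmb9, chr17:34187281-34187580, strand minus: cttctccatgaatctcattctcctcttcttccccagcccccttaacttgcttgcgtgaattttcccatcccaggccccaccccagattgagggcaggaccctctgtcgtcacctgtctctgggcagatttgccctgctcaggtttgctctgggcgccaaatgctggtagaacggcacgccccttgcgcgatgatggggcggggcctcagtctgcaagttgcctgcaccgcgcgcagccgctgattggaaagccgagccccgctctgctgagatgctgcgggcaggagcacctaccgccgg
Tapbp, chr17:33919228-33919527, strand plus: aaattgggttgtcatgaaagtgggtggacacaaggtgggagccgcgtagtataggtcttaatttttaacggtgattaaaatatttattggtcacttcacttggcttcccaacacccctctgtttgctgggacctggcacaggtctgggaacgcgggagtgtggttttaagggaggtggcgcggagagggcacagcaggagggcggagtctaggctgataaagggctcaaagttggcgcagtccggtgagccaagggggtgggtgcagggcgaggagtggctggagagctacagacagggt
Psmb10, chr8:105938343-105938642, strand minus: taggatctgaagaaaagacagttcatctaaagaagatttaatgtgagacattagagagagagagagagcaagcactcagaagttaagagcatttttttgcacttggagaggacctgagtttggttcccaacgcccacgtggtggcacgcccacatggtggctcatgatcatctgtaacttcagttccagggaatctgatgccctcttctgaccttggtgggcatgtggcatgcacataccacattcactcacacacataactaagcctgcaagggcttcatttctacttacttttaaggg

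The 30 libraries held between 13293557 and 23398801 reads in these genes, except triceps T3 replicate 5 with 88826845. The median log2 value of a library ranged from 3.29 to 4.33 and was not removed by the authors' scaling, so the median log2 change of all genes is given beside the members. Of the markers of T, NK and B cells (17), of neutrophils (10) and of leukocytes in common (8), 0 genes were in the table, while all 12 skeletal muscle markers were, at a summed 104785 to 195395 CPM. Macrophage markers (11 of 18 in the table) summed to 22.9 to 120 CPM except in triceps sham replicate 4, with 1096 CPM. In whole muscle, fewer cells of a type and less RNA per cell cannot be told apart.

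Per length of exon sequence, B2m was the member with the highest level in all 6 groups. In gastrocnemius sham it stood at 88.0 ± 25.9 CPM per kilobase (SD, n = 4), H2-D1 at 43.6 ± 14.7, H2-K1 at 30.2 ± 11.9 and Psmb10 at 10.8 ± 3.39. Tapbp (4.68 ± 1.20), Psmb8 (2.02 ± 0.780), Gbp10 (1.75 ± 1.49), Psmb9 (0.935 ± 0.127) and Ifi205 (0.589 ± 0.424) followed. The order of B2m over H2-D1, H2-D1 over H2-K1 and H2-K1 over the next gene was the same in every library of all 6 groups. Among Gbp10, Psmb8, Psmb9 and Ifi205, neighbours in the order overlapped in most groups: in gastrocnemius sham, Gbp10 lay above Psmb9 in 2 of 4 libraries, and in triceps sham Ifi205 lay above Psmb8 in 3 of 6. In triceps sham the levels were 68.6 ± 26.2 CPM per kilobase for B2m (SD, n = 6), 29.9 ± 5.75 for H2-D1, 20.4 ± 4.99 for H2-K1 and 9.34 ± 3.07 for Psmb10. Psmb10 and Tapbp changed places after injury in the gastrocnemius: Tapbp lay below Psmb10 in 4 of 4 sham libraries and above it in 4 of 4 T3 libraries and 4 of 4 T9 libraries.

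**Figure D1:**
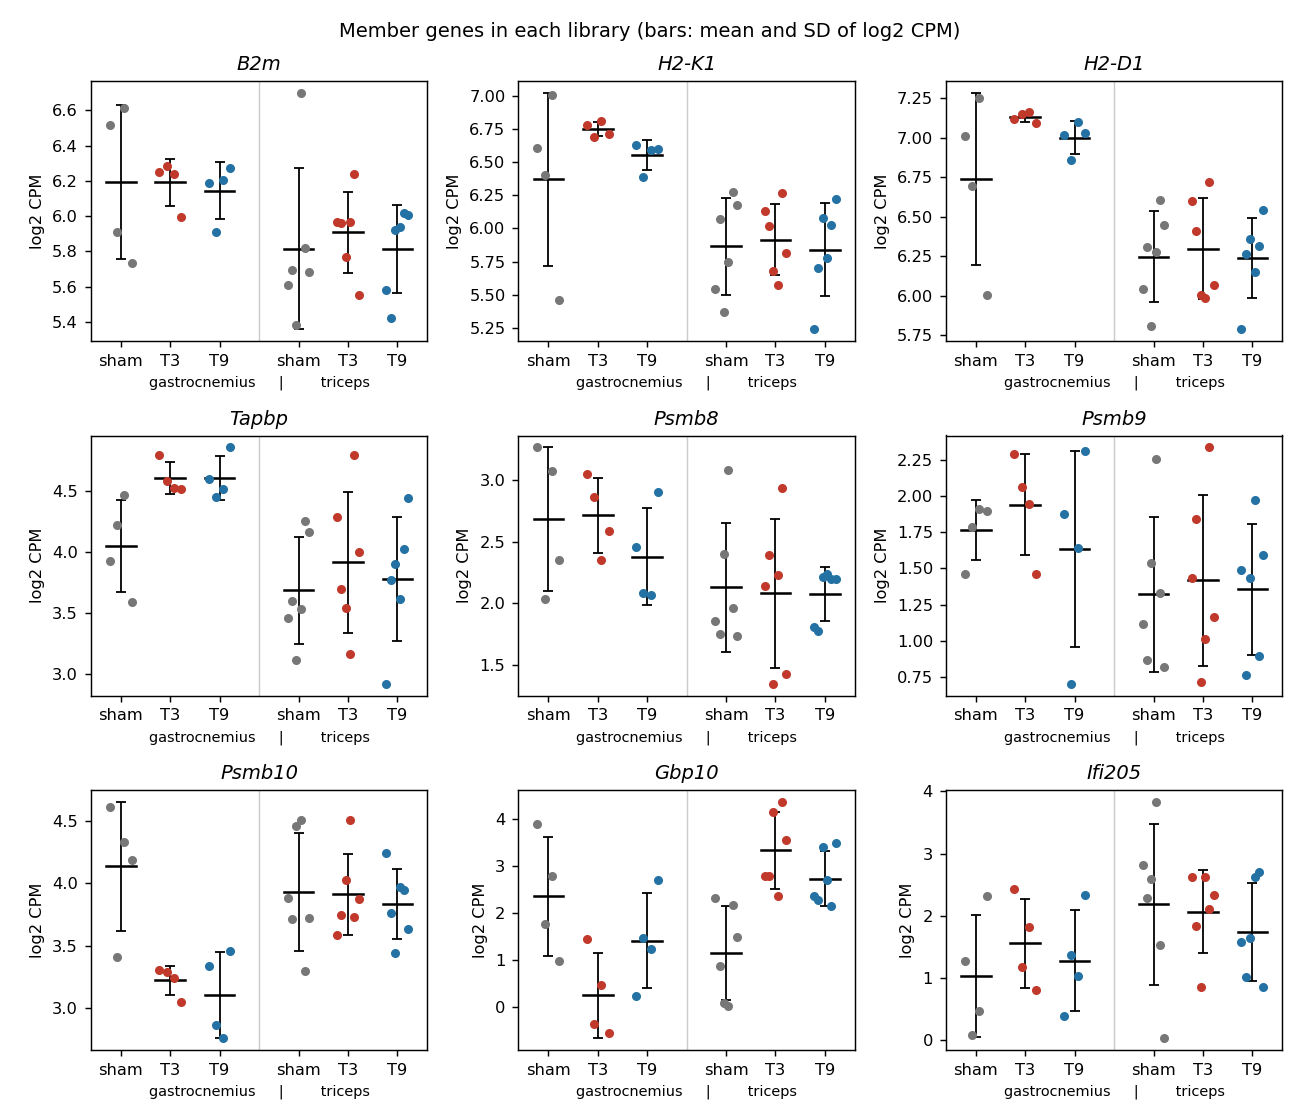
Log2 CPM (y axis) of each of the 9 members in every library, by muscle and surgery (x axis). Points are libraries, horizontal bars means and vertical bars SD of log2 values (n = 4 in the gastrocnemius, n = 6 in the triceps). After T3, all gastrocnemius libraries lie below sham for Psmb10 and above sham for Tapbp, and all triceps libraries lie above sham for Gbp10. The ranges of B2m, Psmb8 and Psmb9 overlap between surgeries in both muscles.

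The first question was whether these genes changed in the gastrocnemius, which lies below both lesions. After T3 transection 3 of the 9 members were called at an adjusted p under 0.05, against 33.7% of all 11248 genes tested. Tapbp was the member called higher (27.1% of all genes were called higher), and Psmb10 and Gbp10 were called lower (6.65% of all genes). The median change of the members was 0.18 on the log2 scale and that of all genes 0.27. After T9 transection 2 members were called, Tapbp higher and Psmb10 lower, against 43.2% of all genes in either direction, 37.6% higher and 5.67% lower. The members' median change was -0.05 and that of all genes 0.40. Centring each library on its median turned the T3 split over all genes from 3046 higher and 748 lower to 1642 and 1626. Between T3 and T9, 0 members were called by limma in the gastrocnemius, against 1.63% of all genes, 0.729% higher and 0.898% lower in T3, and 0 had an unadjusted p under 0.05.

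Psmb10, the subunit MECL-1 of the immunoproteasome, stood at 24.5, 10.6, 20.1 and 18.2 CPM in the sham gastrocnemius libraries, replicates 1 to 4. It stood at 9.88, 9.80, 9.49 and 8.27 CPM after T3 and at 10.1, 7.29, 6.78 and 11.002 CPM after T9. All 4 T3 libraries lay below every sham library, and 3 of 4 T9 libraries did, the fourth lying just above sham replicate 2. The mean went from 18.4 ± 5.79 to 9.36 ± 0.743 CPM after T3 (SD, n = 4). By limma this was -0.91 ± 0.24 on the log2 scale (SE; adjusted p = 0.011), and to 8.79 ± 2.08 CPM after T9 (-1.03 ± 0.24, adjusted p = 0.0053). Psmb10 moved with the median log2 value of the library (Pearson r = -0.80 over the 30 libraries, which differ in muscle and surgery). With the library median as a covariate the changes were -0.67 (limma adjusted p = 0.17) and -0.68 (adjusted p = 0.29), and no longer called. The gastrocnemius medians themselves differed by surgery, at 3.66 to 4.06 in sham, 4.05 to 4.26 after T3 and 4.27 to 4.33 after T9. That fit therefore cannot separate the library median from the injury.

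Tapbp, the gene of tapasin, was at 15.2, 18.6, 22.1 and 12.0 CPM in the sham gastrocnemius. It was at 27.9, 24.03, 23.1 and 22.9 CPM after T3 and at 24.3, 21.9, 22.9 and 29.1 CPM after T9. Every T3 library lay above every sham library, while T9 replicate 2 lay below sham replicate 3. The log2 change was 0.56 ± 0.18 after each lesion (SE; limma, adjusted p = 0.031 after T3 and 0.025 after T9). The share of reads from mitochondrially encoded genes moved the other way, from 9.54% to 13.1% in sham gastrocnemius to 7.47% to 8.06% after T3 and 7.66% to 9.27% after T9, with no overlap with sham. Over the 30 libraries Tapbp correlated with that share at -0.83 and with the library median at 0.83, H2-K1 at -0.83 and 0.77 and H2-D1 at -0.85 and 0.76. The part of the mitochondrial share in these values was not tested. Centring each library on its median ended both calls (0.28, adjusted p = 0.18, and 0.16, adjusted p = 0.46), as did quantile normalization. The T3 call also ended without sham replicate 1 or 4 or without any 1 of the 4 T3 libraries (adjusted p from 0.051 to 0.082), and the T9 call without sham replicate 1, sham replicate 4 or T9 replicate 4 (adjusted p from 0.052 to 0.082).

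Gbp10 had a wider spread on the log2 scale than any other member within each gastrocnemius group. Its sham gastrocnemius libraries held 14.9, 3.39, 6.85 and 1.97 CPM, the T3 libraries 2.71, 0.780, 1.39 and 0.682 CPM and the T9 libraries 1.18, 2.75, 2.36 and 6.50 CPM. The T3 values rest on few reads, 49, 11, 25 and 11. Sham and T3 overlapped in T3 replicate 1, which lay above sham replicate 4, and sham and T9 overlapped more. After T3 Gbp10 fell by 2.102 ± 0.63 on the log2 scale (SE; limma, adjusted p = 0.021). The T9 change was -0.94 ± 0.63 (adjusted p = 0.23, 95% interval from -2.30 to 0.41). Without sham replicate 1 the T3 change was -1.59 (limma adjusted p = 0.073), without T3 replicate 2 it was -1.90 (adjusted p = 0.060) and without T3 replicate 4 it was -1.83 (adjusted p = 0.065).

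The light chain and the heavy chains gave no call in the gastrocnemius. B2m had 91.4, 60.03, 97.9 and 53.3 CPM in sham, 76.2, 77.8, 75.5 and 63.7 CPM after T3 and 73.0, 60.05, 73.8 and 77.3 CPM after T9. All injured libraries lay within the range of sham. The log2 change of B2m was -0.0012 ± 0.19 after T3, with a 95% interval from -0.41 to 0.40, and -0.05 ± 0.19 after T9, from -0.45 to 0.36. H2-K1 had 97.5, 84.6, 128 and 44.1 CPM in sham, 110, 103, 112 and 105 CPM after T3 and 99.1, 83.6, 96.5 and 97.2 CPM after T9. H2-D1 had 129, 104, 153 and 64.1 CPM in sham, 139, 142, 143 and 137 CPM after T3 and 130, 116, 137 and 131 CPM after T9. For both heavy chains sham replicate 4 was the lowest and sham replicate 3 the highest, and the injured libraries lay between them. H2-K1 changed by 0.38 ± 0.24 after T3 (SE; limma adjusted p = 0.23) and 0.18 ± 0.24 after T9 (0.55), and H2-D1 by 0.39 ± 0.21 (0.16) and 0.26 ± 0.21 (0.32). Without sham replicate 3 the T3 changes passed the test, with 0.59 for H2-K1 (limma adjusted p = 0.045) and 0.56 for H2-D1 (adjusted p = 0.035).

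The other immunoproteasome subunits and Ifi205 did not pass either. Psmb8 (LMP7) had 4.10 to 9.64 CPM in sham, 5.11 to 8.29 CPM after T3 and 4.19 to 7.49 CPM after T9 in the gastrocnemius. Psmb9 (LMP2) had 2.76 to 3.76 CPM in sham, 2.76 to 4.90 CPM after T3 and 1.63 to 4.96 CPM after T9. Their groups overlapped, and the 95% intervals of the T3 log2 change were -0.58 to 0.64 for Psmb8 and -0.47 to 0.82 for Psmb9. Ifi205 had 1.07 to 4.97 CPM in sham, 1.75 to 5.39 CPM after T3 and 1.305 to 5.02 CPM after T9, and its T3 interval was -0.57 to 1.61.

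Psmb8, Psmb9 and Psmb10 each take the place of 1 constitutive subunit, so each was also set against it within a library. This takes out a constant scaling factor of the library. A ratio can still move with the library median, with which Psmb10 correlated at -0.80, and no ratio was tested with that covariate. The ratio of Psmb10 to Psmb7 in CPM was 11.4%, 7.85%, 14.5% and 8.85% in sham gastrocnemius, 4.28%, 3.61%, 3.604% and 3.50% after T3 and 5.02%, 3.65%, 3.98% and 5.27% after T9. Neither injured group overlapped with sham, in 4 of 4 libraries each. The log2 ratio differed by -1.47 after T3 and by -1.23 after T9 (two-sided exact permutation test, p = 0.029 for both, the smallest that 4 against 4 allows, and 0.086 adjusted over the 12 ratio tests). In the triceps the ratio was 6.996% to 13.3% in sham (median 8.61%), 4.97% to 7.40% after T3 (median 5.92%) and 6.19% to 8.604% after T9 (median 7.31%). The T3 difference was -0.59 in log2 ratio (exact permutation p = 0.0043, adjusted 0.052), with 5 of 6 T3 libraries below every sham library, and -0.66 among the libraries with label number 60 alone (exact permutation p = 0.029, not adjusted). The T9 difference was -0.30 (exact permutation p = 0.084, adjusted 0.15).

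The ratio of Psmb8 to Psmb5 was 3.38% to 8.97% in sham gastrocnemius, 2.47% to 3.83% after T3 and 2.87% to 4.39% after T9. In 3 of 4 libraries after each lesion it lay below every sham library (log2 difference -0.94, exact permutation p = 0.057, adjusted 0.14, after T3). In the triceps it went from a median of 3.27% to 2.06% after T3 (log2 difference -0.72, exact permutation p = 0.028, adjusted 0.086). The ratio of Psmb9 to Psmb6 overlapped between surgeries in both muscles, with a mean of 1.91% ± 0.803 in sham and 1.49% ± 0.287 after T3 in the gastrocnemius (SD, n = 4; exact permutation p = 0.46, adjusted 0.61). None of the 12 ratio tests passed 0.05 after adjustment, and 4 passed before it. By exact permutation a gastrocnemius test could not go below p = 0.029. After adjustment such a test could pass only if many of the 12 had small p-values.

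**Figure D2:**
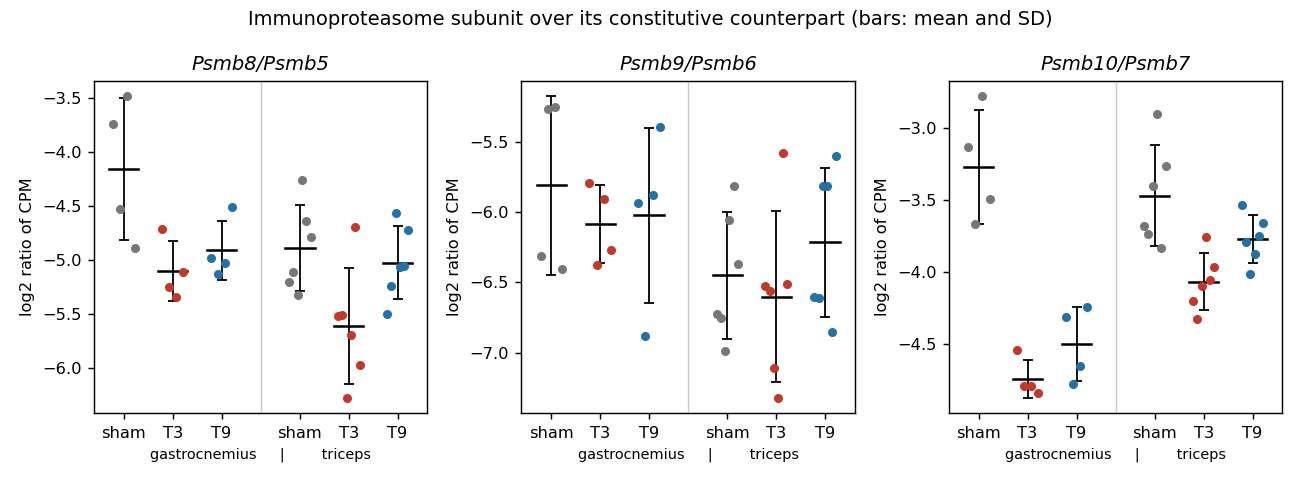
Log2 ratio (y axis) of Psmb8 to Psmb5, Psmb9 to Psmb6 and Psmb10 to Psmb7 in every library, by muscle and surgery (x axis), with mean and SD. In the gastrocnemius the 4 T3 and the 4 T9 libraries lie below all 4 sham libraries for Psmb10 over Psmb7.

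The denominators moved, in some comparisons without a called change of the numerator. After T3, Psmb8 changed by 0.03 ± 0.29 on the log2 scale in the gastrocnemius and by -0.05 ± 0.27 in the triceps (SE). Psmb10 changed by -0.02 ± 0.20 in the triceps after T3, and none of these was called by limma. Psmb5 rose by 0.97 ± 0.17 on the log2 scale in the gastrocnemius after T3 (SE; limma, adjusted p = 0.0011) and by 0.67 ± 0.16 in the triceps after T3 (adjusted p = 0.0064). Psmb7 rose by 0.56 ± 0.16 (adjusted p = 0.020) and by 0.58 ± 0.13 (adjusted p = 0.0035) in the same comparisons, a call lost after centring in both muscles (0.28, adjusted p = 0.32, and 0.34, adjusted p = 0.22) and in the gastrocnemius without T3 replicate 2 or 3. After centring the Psmb5 call was also lost in the triceps (0.44, adjusted p = 0.20). Psmb6 changed by 0.45 ± 0.24 (adjusted p = 0.16) and 0.25 ± 0.20 (adjusted p = 0.37). Of the 7 genes listed for the immunoproteasome and PA28, 2 rose and 1 fell in the gastrocnemius after T3, where 27.1% of all genes rose and 6.65% fell. In the triceps after T3, 2 rose and 1 fell, where 19% of all genes rose and 4.32% fell. Those that rose were the assembly factor Pomp and the regulator subunit Psme3 in both muscles, and both calls were lost after centring in both. The gene that fell was Psmb10 in the gastrocnemius and Psme1, a PA28 subunit, in the triceps (-0.62 ± 0.12, adjusted p = 0.0014).

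The triceps lies above the T9 lesion and receives its nerves above both levels. After T3 transection 1 of the 9 members was called there, Gbp10, against 23.3% of all 11249 genes, 19% higher and 4.32% lower. After T9 transection 0 members were called by limma, against 0.00889% of all genes, and only Gbp10 had an unadjusted p under 0.05. The median change of the members was close to 0 in both comparisons, and that of all genes was 0.23 after T3 and 0.17 after T9. Between T3 and T9, 0 members were called, against 7.6% of all genes, 4.95% higher and 2.65% lower in T3, and 0 had an unadjusted p under 0.05.

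Gbp10 had 1.02 to 4.97 CPM in triceps sham (median 2.32), 5.15 to 20.5 CPM after T3 (median 9.32) and 4.42 to 11.1 CPM after T9 (median 5.82). All 6 T3 libraries lay above all 6 sham libraries, while the T9 group overlapped with sham in its lowest libraries. The mean went from 2.70 ± 1.71 to 11.5 ± 6.37 CPM after T3 (SD, n = 6). On the log2 scale Gbp10 rose by 2.17 ± 0.40 (SE; limma, adjusted p = 0.0010). Within the libraries with label number 60 (replicates 1 to 4 of each group) the change was 2.19 (limma adjusted p = 0.019). Within those with 57 (only replicates 5 and 6 of each group) it was 2.13 (adjusted p = 0.037). After T9 the change over all triceps libraries was 1.57 ± 0.40 (95% interval from 0.73 to 2.40, adjusted p = 0.18), with 1.86 for label number 60 and 0.98 for 57. The T3 call held without any 1 of the 18 libraries.

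The other members differed by less than the spread between triceps libraries. Psmb10 had 9.85 to 22.8 CPM in sham (median 14.0), 12.0 to 22.7 CPM after T3 (median 14.0) and 10.9 to 18.95 CPM after T9 (median 14.5). Its T3 change was -0.02 ± 0.20 on the log2 scale (SE; 95% interval from -0.43 to 0.39). Tapbp had 8.64 to 19.1 CPM in sham, 8.94 to 27.9 CPM after T3 and 7.55 to 21.8 CPM after T9. B2m had 41.6 to 104 CPM in sham, 47.0 to 75.6 CPM after T3 and 42.8 to 64.7 CPM after T9. The highest sham value of B2m (104 CPM), Psmb8 (8.46 CPM), Psmb9 (4.78 CPM) and Ifi205 (14.3 CPM) was in triceps sham replicate 4, which also held 705 CPM of the macrophage gene Lyz2 and 85.8 CPM of Ctss. The part of those cells in the members' values was not tested. The 95% intervals of the T3 change were -0.29 to 0.39 for H2-K1, -0.27 to 0.37 for H2-D1 and -0.30 to 0.49 for B2m.

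**Figure D3:**
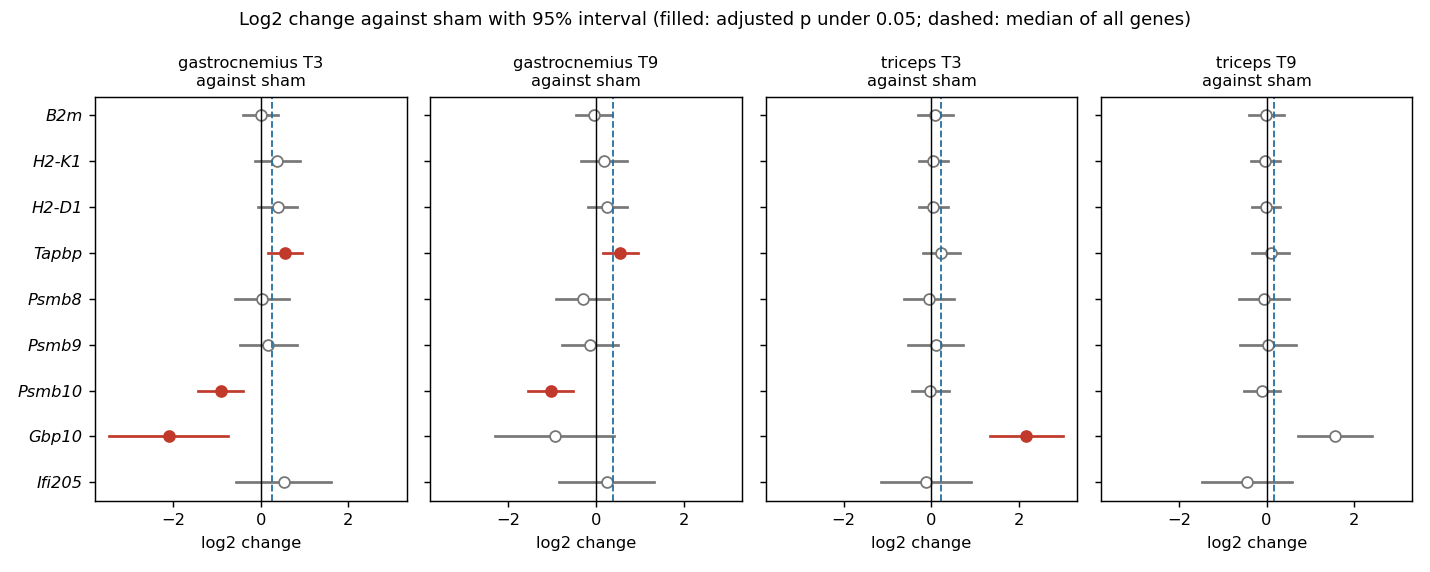
Log2 change against sham (x axis) of the 9 members (y axis) in 4 comparisons, with 95% intervals from limma. Filled points passed an adjusted p of 0.05, and the dashed line is the median change of all genes. Tapbp and Psmb10 were called in the gastrocnemius after both lesions, and Gbp10 was called lower in the gastrocnemius (-2.102) and higher in the triceps (2.17) after T3.

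The design also asks whether an injury acted differently in the muscles. The difference of the T3 effect, gastrocnemius minus triceps, was tested in 24 libraries, both muscles of 12 mice, blocking on the mouse. Of the members 1 was called, Gbp10, against 1.24% of all genes, 0.142% higher and 1.1% lower, and for the T9 effect 2 were called, Gbp10 and Ifi205, against 6.95% of all genes, 3.76% higher and 3.19% lower. For Gbp10 the T3 effect was lower in the gastrocnemius by a log2 difference of -4.29 ± 0.71 (SE; limma, adjusted p = 0.0091) and the T9 effect by -2.80 ± 0.71 (adjusted p = 0.031). In sham, Gbp10 was higher in the gastrocnemius than in the triceps of the same mouse in 4 of 4 mice, with log2 differences from 0.89 to 2.68. After T3 it was higher in 0 of 4 mice, with differences from -4.70 to -1.34, and after T9 in 0 of 4, from -2.16 to -0.0054. In T3 mouse 8, for example, it stood at 0.682 CPM (11 reads) in the gastrocnemius and at 17.7 CPM (414 reads) in the triceps. The T9 call ended without the mouse block (adjusted p = 0.075) and without any 1 of sham mice 1 and 5 and T9 mice 11, 12 and 13 (adjusted p from 0.055 to 0.10), and both calls ended without the mice of the 4 libraries with the lowest medians (-4.001, adjusted p = 0.082, and -2.23, adjusted p = 0.19).

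**Figure D4:**
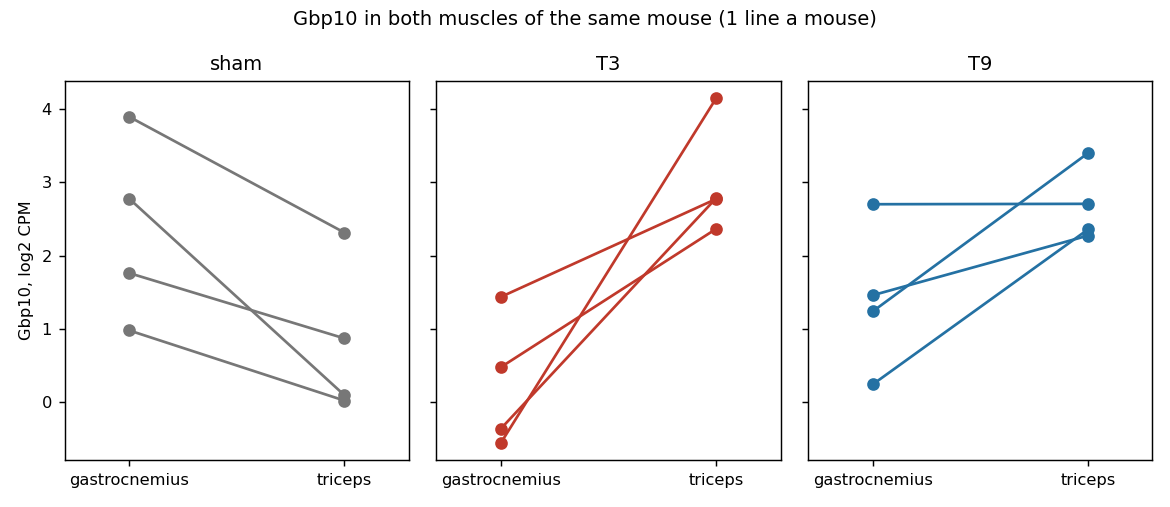
Gbp10 in log2 CPM (y axis) in the gastrocnemius and the triceps (x axis) of the same mouse, 1 line a mouse, 4 mice per surgery. The lines fall from gastrocnemius to triceps in 4 of 4 sham mice and rise in 4 of 4 T3 mice. In 1 T9 mouse both muscles were nearly equal.

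Reads counted for Gbp10 may not all be its own. Of the 150-base windows of its transcript, 63.2% occur exactly in Gbp6 or Gm43302, so the authors' counting could split reads among them and the Gbp10 values are uncertain. Gbp6, another guanylate-binding protein, rose by 1.67 ± 0.26 on the log2 scale in the triceps after T3 (SE; limma, adjusted p = 0.00026) and changed by -1.05 ± 0.55 in the gastrocnemius after T3 (adjusted p = 0.15). Its mean went from 3.896 ± 1.43 to 12.9 ± 5.95 CPM in the triceps (SD, n = 6) and from 8.03 ± 5.51 to 3.81 ± 2.72 CPM in the gastrocnemius (SD, n = 4). With the reads of Gbp10 and Gbp6 summed, the T3 change was 1.85 in the triceps (limma adjusted p = 4e-04) and -1.43 in the gastrocnemius (adjusted p = 0.063), and the differences between the muscles were -3.10 for T3 (adjusted p = 0.027) and -2.07 for T9 (adjusted p = 0.062). Gm43302 was not among the deposited genes, so reads assigned to it are not in this sum.

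Ifi205 was lower in the gastrocnemius than in the triceps of the same mouse in 4 of 4 sham mice. The sham gastrocnemius held 2.43, 1.07, 1.38 and 4.97 CPM in mice 1, 2, 4 and 5, and the triceps of the same mice 7.05, 4.89, 6.01 and 14.3 CPM. The log2 difference ranged from -2.20 to -1.52 in sham, from -0.80 to -0.05 after T3 and from -1.19 to 0.36 after T9. Between the effects of T9 in the muscles Ifi205 differed by 1.41 ± 0.34 (SE; limma, adjusted p = 0.027) and between those of T3 by 1.42 ± 0.34 (adjusted p = 0.065). The T9 call ended after centring (1.28, adjusted p = 0.078), without the mouse block (adjusted p = 0.36) and without any 1 of T9 mice 12, 13 and 15 and sham mouse 2 (adjusted p from 0.062 to 0.083). Of the windows of the Ifi205 transcript, 36.1% are shared with Ifi211 or Mndal, so its values are uncertain too. With the 3 genes summed, the sham gastrocnemius held 7.42, 7.01, 7.93 and 12.0 CPM in mice 1, 2, 4 and 5. The triceps of the same mice held 12.9, 11.6, 12.4 and 35.2 CPM. On the log2 scale the gap was narrower than for Ifi205 alone in mice 1, 2 and 4, and similar in mouse 5.

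Without injury, 5 of the 9 members differed between the muscles, against 38.9% of all genes, 26.8% higher in the gastrocnemius and 12% lower. H2-K1 (0.69 ± 0.25 on the log2 scale, SE), H2-D1 (0.63 ± 0.22), Tapbp (0.62 ± 0.22) and Gbp10 (1.53 ± 0.50) were higher in the gastrocnemius, with limma adjusted p from 0.032 to 0.043. Ifi205 was lower by a log2 difference of -1.85 ± 0.24 (adjusted p = 0.0033). The median difference of all genes was 0.27, and centring each library left 1 call, that of Ifi205. H2-K1 and H2-D1 were higher in 3 of 4 sham mice and in 4 of 4 mice after T3 and after T9. Of the endothelial markers, 10 of 16 were called higher in the gastrocnemius. They summed to 639, 791, 877 and 410 CPM in sham mice 1, 2, 4 and 5 against 537, 491, 264 and 307 CPM in the triceps, higher in 4 of 4. Skeletal muscle markers were likewise higher in each of these mice, at 153659, 195395, 185855 and 136034 CPM against 127237, 147792, 152042 and 108611 CPM. The sums of the other marker lists were higher in some of these mice and lower in others. In mouse 5, H2-K1 (44.1 against 53.7 CPM) and H2-D1 (64.1 against 77.6 CPM) were lower in the gastrocnemius. The part of these markers in the difference was not tested. Without sham mouse 4, the mouse whose libraries did not deviate together, 1 member was called, Ifi205, and without the mouse block 0 were called by limma, the adjusted p of those 5 members lying between 0.059 and 0.075.

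Other genes of antigen presentation and of the interferon response were taken as lists. Their counts stand beside the shares of all genes called: 27.1% higher and 6.65% lower (gastrocnemius, T3), 37.6% and 5.67% (gastrocnemius, T9), and 19% and 4.32% (triceps, T3). In the gastrocnemius after T3, 3 of 10 class I heavy chain genes rose and 1 fell on the values as deposited, before centring, near those shares. Their median change was 0.49 on the log2 scale against 0.27 for all genes. H2-K2 (0.83 ± 0.21, SE; limma adjusted p = 0.0098) and H2-Q4 (1.05 ± 0.28, adjusted p = 0.012) rose, and H2-T22, a class Ib gene, fell by 0.58 ± 0.15 (adjusted p = 0.0093). Of 13 genes of peptide loading and trimming, 5 rose after T3 and 7 after T9, and 2 rose in the triceps after T3. The chaperone calnexin (Canx) rose by 1.13 ± 0.18 and by 1.21 ± 0.18 in the gastrocnemius (T3, T9) and by 0.89 ± 0.16 in the triceps after T3 (adjusted p from 0.00031 to 0.00092). After centring the rises numbered 2 and 2 of 13 in the gastrocnemius (T3, T9) and 1 in the triceps (T3). H2-T22 also fell in the triceps after T3, by 0.59 ± 0.15 (adjusted p = 0.0073).

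Of 15 interferon-inducible GTPases, 6 rose and 2 fell in the gastrocnemius after T3 on the values as deposited, before centring. Their median change was 0.71 against 0.27 for all genes. Gbp2 (1.24 ± 0.23, SE; limma adjusted p = 0.0013), Gbp9 (1.25 ± 0.30), Gbp4 (1.39 ± 0.34) and Gbp5 (1.32 ± 0.36) rose, and Gbp10 and Gbp7 (-1.41 ± 0.47, adjusted p = 0.033) fell. The Gbp7 call was lost without sham replicate 1 or 3 or T3 replicate 2, 3 or 4 (-1.42 to -1.01, adjusted p from 0.065 to 0.11). Gbp4 (chr5:105115767-105139586) and Gbp9 (chr5:105077630-105139539) overlap on the minus strand, so their rises may not be separate. In the triceps after T3, 5 of the 15 rose and 0 fell, with Gbp10, Gbp6 and Irgm1 (0.73 ± 0.15, adjusted p = 0.0026), a GTPase of autophagy, among them, and after centring 3 rose and 1 fell. After T9, 3 rose in the gastrocnemius, below the share of all genes, and 0 rose and 1 fell there after centring, while 0 rose in the triceps. Of 34 other interferon-stimulated genes, 5 rose and 0 fell in the gastrocnemius after T3, with the antiviral gene Rsad2 at 1.13 ± 0.25 (adjusted p = 0.0045), and 0 rose and 1 fell in the triceps. The rises in the gastrocnemius were below the 27.1% of all genes. After centring 2 of the 34 rose and 3 fell in the gastrocnemius after T3. Of 19 receptors, kinases and transcription factors of interferon signalling, 4 rose and 2 fell in the gastrocnemius after T3, the rises again below that share, and 0 rose and 3 fell after centring. Irf5 fell by 1.66 ± 0.29 in the gastrocnemius (adjusted p = 0.00087) and by 1.22 ± 0.26 in the triceps (adjusted p = 0.0026).

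Across the 30 libraries, with each library's median subtracted, the members fell into patterns that are described without a test, since the libraries share mice, muscles and surgeries. H2-K1 and H2-D1 varied together (Pearson r = 0.96), as did B2m and Psmb8 (0.86) and Psmb8 and Psmb9 (0.78). Triceps sham replicate 4, with 1096 CPM of macrophage markers, is among the 30 libraries, and no correlation was computed without it. Tapbp correlated with H2-K1 at 0.74 and with Psmb10 at -0.55. Gbp10 correlated with no other member beyond -0.38 and 0.34. The genes most like B2m were Bst2 (0.76), Irf7 (0.74) and H2-Ab1 (0.74), those most like H2-K1 were Lgals3bp (0.84), H2-Q4 (0.79) and Nrde2 (0.77), and those most like H2-D1 were Lgals3bp (0.81), H2-Q4 (0.77) and Phf20 (0.77). Psmb8 was most like Ifit3 (0.82), Irf7 (0.801) and H2-T23 (0.79), Psmb9 like Xaf1 (0.76), Irf7 (0.75) and Ifit1 (0.74), and Tapbp like Samhd1, Mast3 and Ly6e (0.87 to 0.88). Psmb10 stood apart from the other immunoproteasome subunits, with Bsg (0.95), Ndufb7 (0.92) and Cav3 (0.92) as the genes most like it. Before subtraction Psmb10 correlated with the library median at -0.80, and the part of the subtraction in these correlations was not tested. Gbp10 was most like Gbp6 (0.91), Pank1 (0.85) and Zdhhc23 (0.82), and Ifi205 most like Ifi211 (0.88), Fas (0.86) and Cfdp1 (0.81), the first of each being a gene that shares sequence with it.

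**Figure D5:**
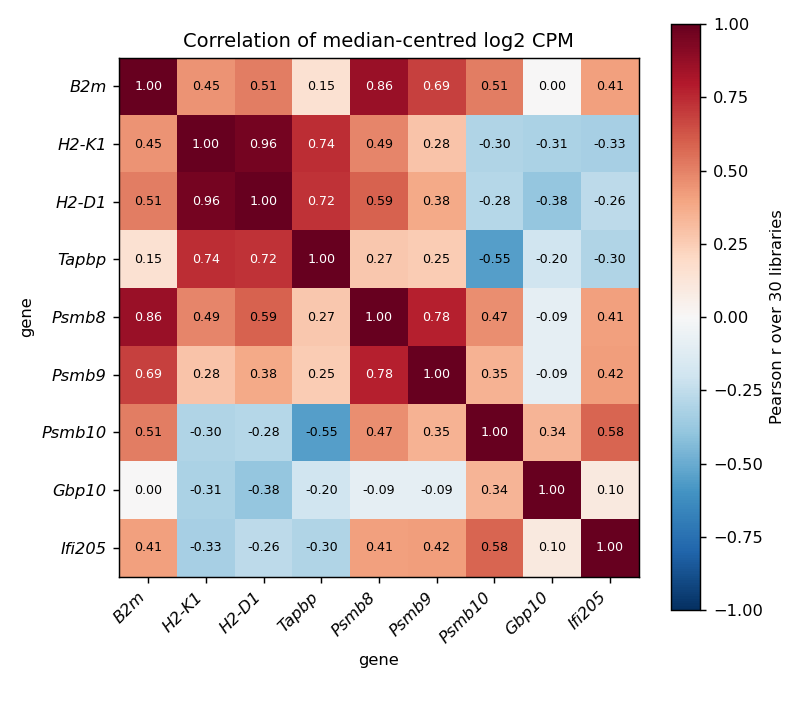
Pearson correlation (colour and printed value) between the members, on both axes, over 30 libraries after subtracting each library's median log2 value. H2-K1 and H2-D1 form the strongest pair (0.96), B2m, Psmb8 and Psmb9 form a block (0.69 to 0.86), and Gbp10 lies between -0.38 and 0.34 with the others.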

How the data were processed

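PolyA RNA of 30 muscle libraries was read as stranded pairs, per the labels' protocols. Per the submitters' processing notes, HISAT2 2.1.0, GRCm38, featureCounts, Subread 1.5.1 and limma were used. The authors deposited log2 CPM (0.5 reads added, scaling only to each library's own total), and 100% of them gave whole reads within 0.01 reads. Every gene reached 2.34 CPM in 4 or more libraries. Of the gene IDs, 11240 matched a symbol and 9 did not.

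Tests used limma 3.58.1 (R 4.3.3) on the log2 values: two-sided moderated linear models with a variance trend, Benjamini-Hochberg adjusted over all genes that had log2 values of 0 or more in 4 libraries. The 12 gastrocnemius libraries were fitted together. The 18 triceps libraries were fitted with a term for the number 57 or 60 in their descriptions, which the labels do not explain. The fits between muscles had the mouse as a block. Mouse numbers were read from the descriptions, an inference: same-numbered libraries deviated together (r over 0.1) in 11 of 12 mice, but not in sham mouse 4 (r = -0.75). Of 30 pairs of libraries from different mice that share a replicate number, 13 also had r over 0.1. Ratios were compared by exact permutation. The code was tested on simulated data.

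Members and lists were chosen with earlier results of these data known. The text names the members, up to 4 called genes of each list per comparison, a panel holding Psmb5, Psmb6, Psmb7, Psme1, Lyz2 and Ctss, and the 3 genes most like each member. Gbp7 was named after its values were seen. 1 further gene of that panel is not reported here. Promoter windows are from RefSeq. Alternatives covered scaling, filters, a pseudocount, the variance trend, the groups fitted, blocks, label numbers and each library left out. Chosen after seeing the data were voom weights on recovered reads, the library median as a covariate, sums over sequence-sharing genes, and leaving out the 4 libraries of lowest median.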

Additional observations from a re-analysis of the deposited data

Results flagged for a closer look

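In 72 groups of values, 4 held a library far from the rest of its group, where chance gives about 1 in 20. B2m was low in gastrocnemius T3 replicate 4 (63.7 CPM) and high in triceps sham replicate 4 (103.9 CPM). H2-K1 was low in gastrocnemius T9 replicate 2 (83.6 CPM), and the ratio of Psmb10 to Psmb7 was high in gastrocnemius T3 replicate 1 (4.28%).

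The effect of an injury differed between gastrocnemius and triceps for some genes by limma. The log2 difference was -4.29 for Gbp10 after T3 and -2.80 after T9, and 1.41 for Ifi205 after T9. Of the list genes, Calr, a chaperone of class I loading (0.73, adjusted p = 0.016), and Ifi207, of the same family as Ifi205 (1.67, adjusted p = 0.0087), also differed after T9.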

How the results depend on the processing

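With the library median as a covariate the number of members called was 1 in the gastrocnemius after T3, 0 after T9, 2 in the triceps after T3, 3 for the T3 difference between muscles and 1 in sham between muscles. That covariate turned the sign for Psmb10 in the triceps after T3 (0.39) and, in the gastrocnemius after T9, for Tap2 (-0.44) and Pecam1 (-0.96). The cause was not tested. In the gastrocnemius the library medians differed by surgery almost without overlap, so there the fit cannot separate the median from the injury. After centring, 1 was called in the gastrocnemius after T9, 1 for the T9 difference and 1 in sham, and after quantile normalization 1, 1 and 3. With only the groups compared, 1 was called in the gastrocnemius after T9, and with a pseudocount of 1 CPM 2 for the T3 difference. Summing sequence-sharing genes gave 1 for the T9 difference. Without the libraries of lowest median the counts were 1 in the gastrocnemius after T9, 0 and 1 for the T3 and T9 differences and 0 in sham. Leaving out 1 library or mouse gave 1 to 5 in the gastrocnemius after T3 (5 without sham replicate 3), 1 to 2 after T9, 1 to 2 for the T3 difference, 0 to 2 for the T9 difference and 1 to 7 in sham (7 without sham mouse 5, 1 without sham mouse 1 or 4, and 2 or 3 without sham mouse 2, T3 mouse 7 or 8 or T9 mouse 13 or 15). The log2 ratio of Psmb8 to Psmb5 in the triceps after T3 ranged from -0.91 to -0.59 and lost its unadjusted call without sham replicate 4, 5 or 6 or T3 replicate 3 or 6. That of Psmb10 to Psmb7 after T9 ranged from -0.37 to -0.19 and passed without sham replicate 5.

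Without the mouse block, 0 members were called for the T9 difference and 0 in sham. Replicate numbers do not pair the libraries (median correlation -0.002, over 0.1 in 13 of 30 pairs). With the replicate block, Tapbp in the gastrocnemius after T3 had an adjusted p of 0.057. The number of libraries limits the precision.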
